A study of Mus musculus with 26 samples.

Results

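Proliferation genes are those that a dividing cell needs to copy its DNA and to pull the copies apart, and 42 of them were followed through 4 mouse lineages. They were taken by name from the deposited expression table, where all 42 had a value in each of 26 libraries, among 25146 such gene lines in all. By textbook role they fell into 20 S-phase genes, 19 mitotic genes and 3 genes that act from S phase to G2 (Ccna2, Cdca5 and Neil3). The S-phase genes were Mcm2, Mcm3, Mcm4, Mcm5, Mcm6, Mcm7, Pcna, Prim1, Pola1, Tyms, Rrm1, Rrm2, Tk1, Cdc6, Cdt1, Gmnn, Ccne1, Ccne2, E2f1 and E2f8. The mitotic genes were Mki67, Top2a, Cdk1, Ccnb1, Ccnb2, Cdc20, Cdca8, Bub1, Bub1b, Aurka, Aurkb, Plk1, Birc5, Pbk, Ect2, Kif11, Kif20a, Cenpe and Cenpf.

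The libraries came from 13 sorted groups of 2 each, in a study of the transcription factor BLIMP1. The germ cell lineage was 1 group, d2 PGCLC, primordial germ cell-like cells on day 2 of induction from epiblast-like cells. BMP4 and BMP8A were present at 500 ng/ml each, with LIF at 1000 U/ml, and SCF and EGF were added at 100 and 50 ng/ml. These cells descended from transfected embryonic stem cells of mixed C57BL/6 and 129 strain that carry Blimp1-mVenus, stella-ECFP and Rosa26-rtTA, and were sorted as BV+. All other groups, controls included, came from C57BL/6 mice homozygous for an EGFP knock-in that tags BLIMP1 at its N terminus. The intestinal groups were EpCAM-positive cells between the caudal duodenum and the ileocecal junction. By the isolation protocol P14_IE and P3_IE (postnatal days 14 and 3) were reporter-negative and E16.5_emIE (embryonic) was reporter-positive, so in that lineage gate and age cannot be told apart.

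The retinal groups were photoreceptor precursors. P0_PRP_GFP+ was reporter-positive at postnatal day 0, and P4_PRP_GFP+CD73- was reporter-positive and negative for the surface marker CD73 at day 4. P4_PRP_CD73+, P6_PRP_CD73+ and P10_PRP_CD73+ were CD73-positive cells of days 4, 6 and 10 with no reporter gate. In the B lineage, B cell was the B220-positive spleen population of mice 8 to 10 weeks old. Blast (negative for reporter and CD138), prePB (reporter-positive, CD138-negative) and PB (positive for both) were sorted from such cells after 3 days with IL-4 (2 ng/mL) and LPS (10 ng/mL). The labels do not tell whether the 2 libraries of a group had different animals or cultures as their source. The p-values then cover the scatter between these samples alone, which may be technical.

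Before S phase, CDC6 and CDT1 load the helicase made of MCM2 to MCM7 onto DNA, cyclin E and E2F1 drive entry into S phase, and geminin (Gmnn) blocks renewed loading by CDT1. Ribonucleotide reductase (Rrm1, Rrm2), thymidylate synthase (Tyms) and thymidine kinase (Tk1) supply nucleotides, while primase, DNA polymerase alpha and the clamp PCNA serve synthesis. Later, cyclin B with CDK1 starts mitosis, PLK1 and the Aurora kinases build the spindle, BUB1 and BUB1B guard it, and CDC20 activates the complex that frees the chromosomes. Mature photoreceptors no longer divide, crypts of the small intestine keep dividing for life, and B cells divide rapidly once activated.

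Values were reads scaled to library size (RPM) from 3' RNA-seq, made by the authors from libraries amplified from 1 ng of RNA. The step between low values gave library depths of 1.72 to 6.04 M reads, so 1 read was worth 0.166 to 0.583 RPM and a value near 1 RPM rests on a few reads. In bulk samples fewer dividing cells and less RNA per cell cannot be told apart. The P4 libraries stood apart. Replicate 2 held more than replicate 1 for 39 of 42 members in P4_PRP_GFP+CD73- and for 41 of 42 in P4_PRP_CD73+, with median ratios of 1.95 and 1.94. In the other 11 groups this median ratio lay between 0.891 and 1.23.

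Prdm1, which encodes BLIMP1, had 181 and 242 RPM in PB and 135 and 155 RPM in prePB, against 3.30 and 2.31 RPM in Blast. It still had 21.4 and 16.9 RPM in P14_IE and 46.2 and 71.3 RPM in P3_IE, both sorted as reporter-negative, against 93.5 and 107 RPM in E16.5_emIE. The summed level of 10 rod photoreceptor markers was 35483 and 41473 RPM in P10_PRP_CD73+ against 1153 and 1089.7 RPM in P0_PRP_GFP+. Germ cell and pluripotency markers, 6 in all, summed to 749 and 728 RPM in d2 PGCLC against 1.78 and 1.73 RPM in Blast, and none was at 0 in d2 PGCLC. The 6 B cell markers summed to 1790.5 and 1700.4 RPM in PB and 3516 and 3914 RPM in Blast, against 9860.3 and 9538 RPM in B cell.

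**Figure D1:**
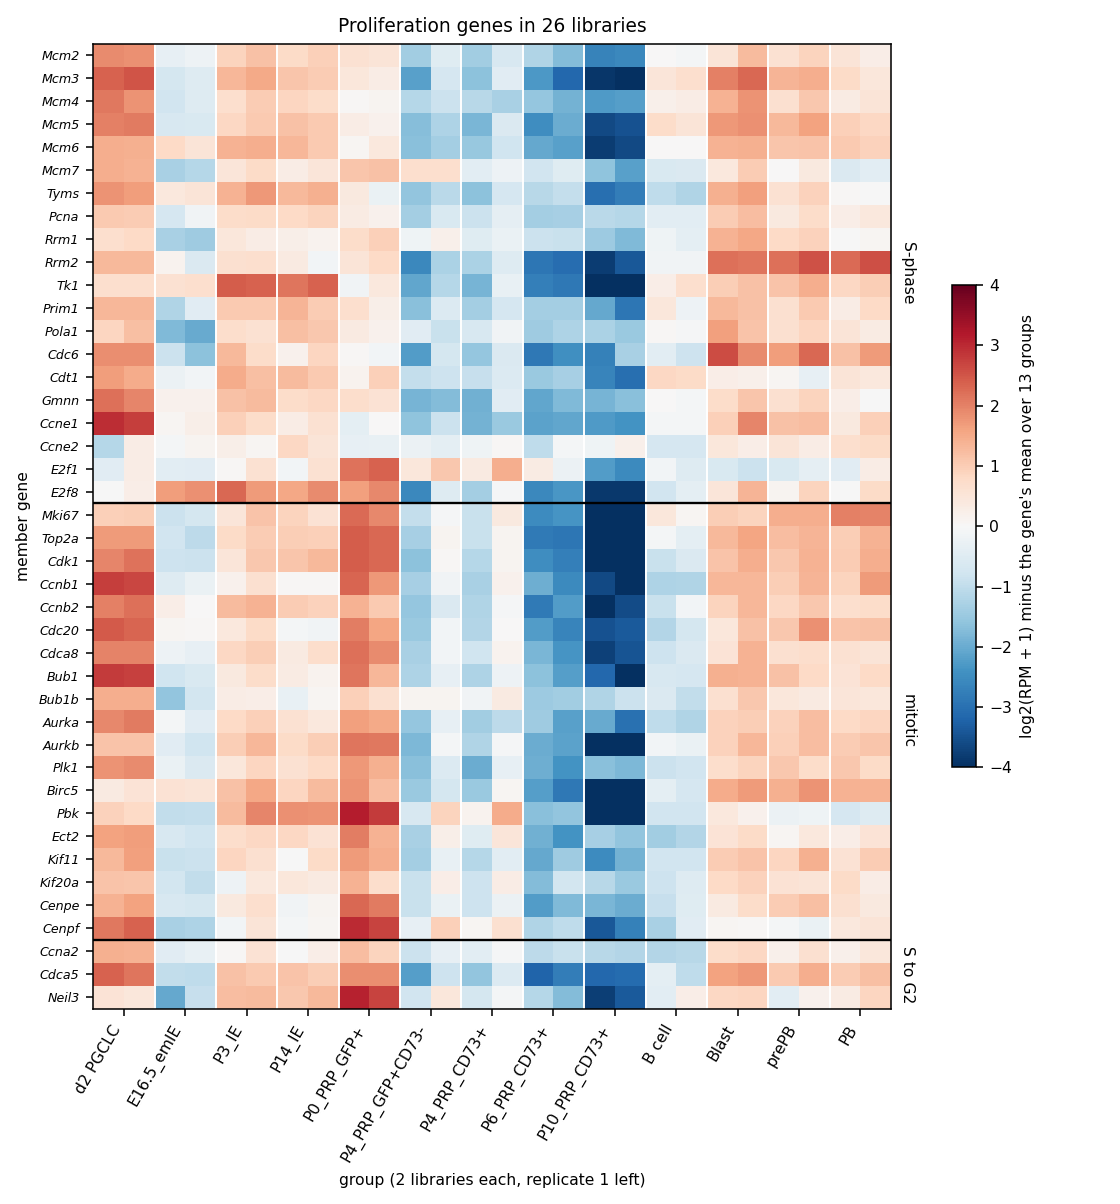
Each of the 42 members (rows, by class) in each of the 26 libraries (columns, replicate 1 left), coloured by log2(RPM + 1) minus the gene's mean over the 13 groups, blue for lower and red for higher. Colours stop at 4 either way. Blue is deepest in the 2 columns of P10_PRP_CD73+, the group where 33 members had their lowest mean.

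The members were high in d2 PGCLC and P0_PRP_GFP+ and low in late photoreceptor precursors. By group mean, 21 of 42 members had their highest level in d2 PGCLC (11 S-phase, 8 mitotic, 2 S to G2). Another 12 had it in P0_PRP_GFP+, of which 10 were mitotic and the others were E2f1 and Neil3. Blast was highest for 4, P3_IE for 2 (Tk1 and E2f8), PB for 2 (Rrm2 and Ccne2) and prePB for 1 (Birc5). The lowest level fell in P10_PRP_CD73+ for 33 members and in P6_PRP_CD73+ for 7.

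Summed over the 42 members, the level was 7537 RPM in d2 PGCLC. In the intestine E16.5 had 1912 RPM, P3 had 4722 RPM and P14 had 4351 RPM. In the retina it was 6106 RPM at P0, 1641 and 1728 RPM in the CD73-negative and CD73-positive P4 sorts, 796 RPM at P6 and 516 RPM at P10. The B lineage had 2005 RPM in B cell, 5623 RPM in Blast, 4644 RPM in prePB and 4071 RPM in PB. The sum was thus lowest at P10 of the retina, and P6 came next, then both P4 sorts, E16.5_emIE and B cell, all below the remaining groups.

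Most members shared 1 pattern over the 13 groups. The Pearson correlation of a member with the mean of the other members had a median of 0.919, with 0.335 as the lowest value and 0.985 as the highest. Over the same 13 group means, which share their libraries, the 10 other genes most like the mean of the members had r between 0.975 and 0.984 among 14090 genes. They were Clspn, Nusap1, Kif4, Uhrf1, Esco2, Ska1, Ube2c, 5730590G19Rik, 4930547N16Rik and Cenph.

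Of the 42 members, 6 ended within 500 bases of a measured gene on the opposite strand: Mcm7 (Cops6), Ccne2 (Ints8), Cdc20 (Elovl1), Plk1 (Ern2), Kif20a (Cdc23) and Ccna2 (Exosc9). The sources used here do not say whether counting used strand, so the values of these 6 are uncertain to that extent.

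The classes did not keep 1 ratio to each other in all groups. The mean log2(RPM + 1) of the 20 S-phase members minus that of the 19 mitotic members was highest in P10_PRP_CD73+, at 0.74 ± 0.079, and lowest in P0_PRP_GFP+, at -1.33 ± 0.30 (SD, n = 2 each). With a pseudocount of 4 RPM the highest group was B cell, at 0.63, with P10_PRP_CD73+ at 0.58. Levels of different genes enter it, so only its change between groups is read, not its sign. In the P4 sorts it was -0.33 ± 0.34 without and -0.34 ± 0.21 with CD73, and at P6 it was 0.41 ± 0.080. In the intestine E16.5 had 0.31 ± 0.051, P3 had 0.30 ± 0.22 and P14 had 0.37 ± 0.036, where the values of P3 spanned the others. The B lineage stepped down, with 0.63 ± 0.13 in B cell, 0.29 ± 0.044 in Blast, 0.018 ± 0.070 in prePB and -0.22 ± 0.025 in PB, and no 2 of these groups overlapped. The value in d2 PGCLC was -0.32 ± 0.016.

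Genes outside the 42 had the same groups at the ends of the order. For 24 other replication genes minus 28 other mitosis genes, the difference was 1.62 ± 0.019 in P10_PRP_CD73+ and -1.02 ± 0.32 in P0_PRP_GFP+ (SD, n = 2 each). In the B lineage it was 0.59 ± 0.082 in B cell, 0.56 ± 0.050 in Blast, 0.22 ± 0.020 in prePB and -0.067 ± 0.0050 in PB. There B cell and Blast overlapped, and prePB and PB lay below both. Both measures are descriptions without a test.

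**Figure D2:**
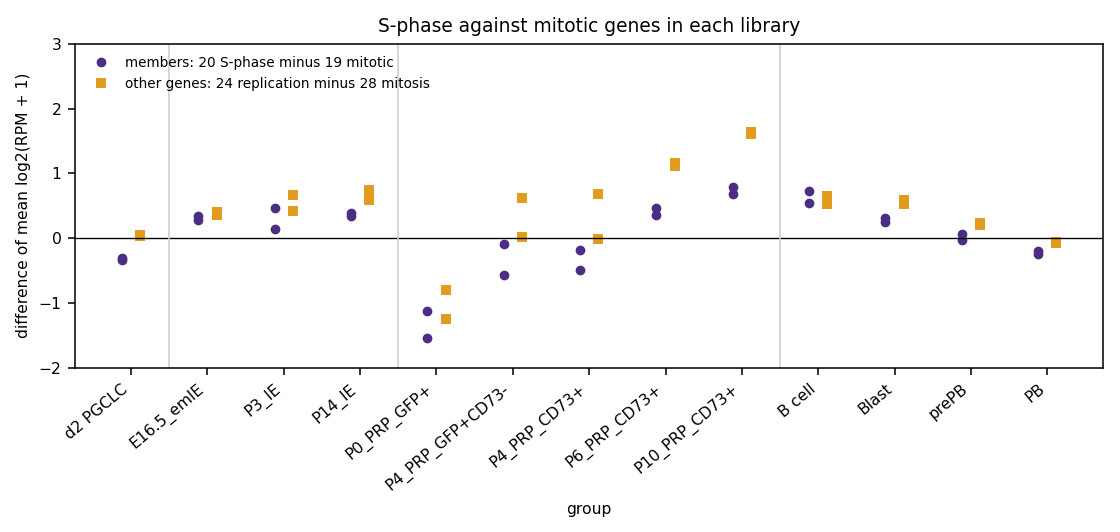
Mean log2(RPM + 1) of S-phase genes minus that of mitotic genes (vertical axis) in each library of the 13 groups (horizontal axis), for the members (purple circles) and for replication and mitosis genes that are not members (orange squares). The P10_PRP_CD73+ members lie at 0.68 and 0.80, the P0_PRP_GFP+ members at -1.55 and -1.12, and the B-lineage members step down to -0.24 and -0.20 in PB.

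**Figure D3:**
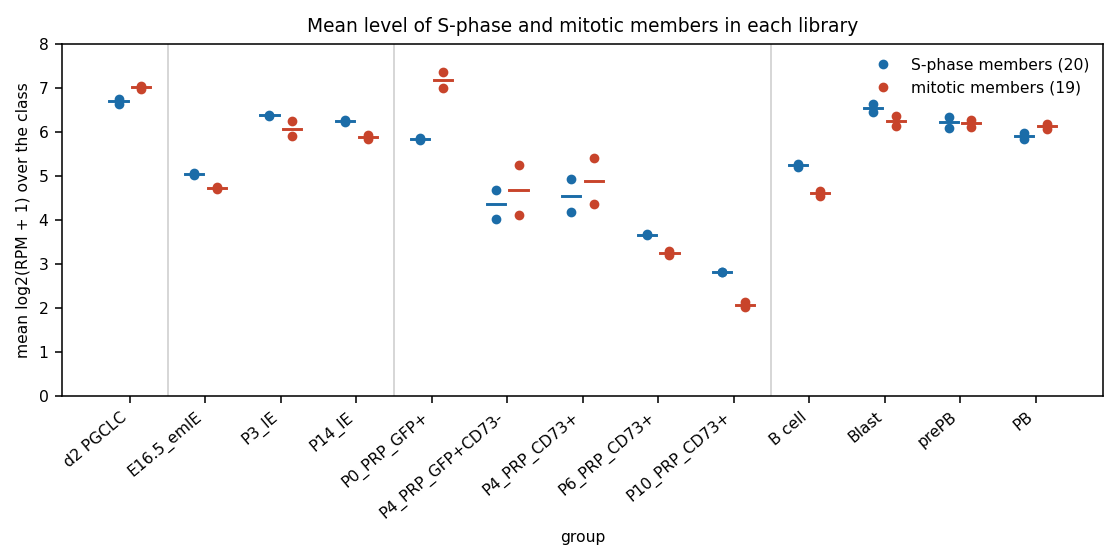
Mean log2(RPM + 1) of the 20 S-phase members (blue) and the 19 mitotic members (red) in each library (points) and as a group mean (bars), over the 13 groups (horizontal axis). The mitotic mean is 2.06 ± 0.080 at P10 and 7.17 ± 0.26 at P0 of the retina, and the S-phase mean is 2.80 ± 0.00099 at P10 and 5.84 ± 0.043 at P0 (SD, n = 2 each).

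The proximal promoters of the members were compared by class. RefSeq windows on GRCm38.p6, from 250 bases before to 50 after the start, were matched for 35 of the 42 members (17 S-phase, 16 mitotic, 2 S to G2). Motifs were searched on both strands, and a gene counted where any of its windows held the match. The E2F factors of the G1/S switch read letters such as TTCCCGC and, in other promoters, TTCGCGC. The search also took TTGCCGC and its close relative TTGGCGC as E2F letters. They were in 11 of 17 S-phase members and 4 of 16 mitotic members, against 10.9% of 27025 genes. The cell cycle genes homology region (CHR, with the letters TTTGAA or else TTCGAA) is where MuvB complexes bind mitotic genes. It was in 3 of 17 S-phase and 13 of 16 mitotic members, against 21.7% of all genes. The CCAAT box, read by NF-Y, was in 11 of 17 S-phase and 15 of 16 mitotic members, against 41.1%. CHR and CCAAT stood together in a window of 3 of 17 S-phase and 13 of 16 mitotic members, against 8.61%. These are matches of letters, not sites known to be bound, and TTGGCGC can overlap CCAAT on the other strand.

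Windows of 4 members show both arrangements, with every E2F, CHR and CCAAT match in capitals. Cdc6 (chr11:98907901-98908200, plus strand) and Ccnb1 (chr13:100786437-100786736, minus strand) are the S-phase and the mitotic member with the largest change in Blast against B cell. Mcm5 (chr8:75109259-75109558, plus strand) and Top2a (chr11:99024140-99024439, minus strand) were chosen after the matches were seen, for their many E2F and CHR matches.
Cdc6: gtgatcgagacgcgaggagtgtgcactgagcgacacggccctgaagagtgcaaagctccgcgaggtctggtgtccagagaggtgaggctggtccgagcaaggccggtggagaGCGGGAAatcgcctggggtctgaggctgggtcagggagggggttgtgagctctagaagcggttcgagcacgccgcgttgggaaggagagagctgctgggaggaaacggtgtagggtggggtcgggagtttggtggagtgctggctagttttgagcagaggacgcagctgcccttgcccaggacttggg
Ccnb1: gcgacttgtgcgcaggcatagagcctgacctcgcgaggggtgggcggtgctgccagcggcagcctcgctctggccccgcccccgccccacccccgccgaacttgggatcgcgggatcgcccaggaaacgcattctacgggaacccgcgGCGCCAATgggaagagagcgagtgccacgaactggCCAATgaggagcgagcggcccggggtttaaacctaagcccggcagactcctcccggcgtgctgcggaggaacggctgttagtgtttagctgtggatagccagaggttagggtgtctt
Mcm5: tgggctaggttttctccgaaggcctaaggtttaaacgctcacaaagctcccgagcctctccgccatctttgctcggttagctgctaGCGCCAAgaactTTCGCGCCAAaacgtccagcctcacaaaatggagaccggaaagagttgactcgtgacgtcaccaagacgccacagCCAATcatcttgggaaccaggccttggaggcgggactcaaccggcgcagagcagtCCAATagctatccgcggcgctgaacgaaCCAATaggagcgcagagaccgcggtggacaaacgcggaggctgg
Top2a: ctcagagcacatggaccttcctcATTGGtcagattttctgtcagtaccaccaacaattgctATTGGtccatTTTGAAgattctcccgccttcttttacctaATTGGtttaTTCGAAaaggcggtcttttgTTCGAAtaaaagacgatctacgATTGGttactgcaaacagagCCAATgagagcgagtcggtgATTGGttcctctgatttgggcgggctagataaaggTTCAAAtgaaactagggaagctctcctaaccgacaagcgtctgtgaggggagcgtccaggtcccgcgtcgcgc
The Cdc6 window holds an E2F match 138 bases before the start and no CHR or CCAAT. In the Ccnb1 window an E2F match 102 bases before the start overlaps the first of 2 CCAAT boxes, and no CHR is found. Mcm5 holds 3 E2F matches, at 164, 152 and 149 bases before the start, of which the last pair overlap, beside 3 CCAAT boxes. Top2a holds 4 CHR and 6 CCAAT matches and no E2F match.

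Activated B cells held more of most members than resting ones. A gene was called higher or lower where limma's adjusted p was under 0.05 and the log2 fold change, on the log2(RPM + 1) scale, was at least 1 either way. In Blast against B cell 33 of 41 tested members were called higher and 0 lower, where 12.3% of 9871 genes were called higher and 21.8% lower. S-phase members rose in 14 of 19 cases (median log2 fold change 1.397), mitotic members in 17 of 19 (1.66), and Ccna2 and Cdca5 rose as well. The median over all genes tested was -0.18. Ccne2, a second cyclin E, stayed between 0.583 and 5.19 RPM in all libraries, passed the filter of 5 RPM in 2 samples in no fit, and was not tested.

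Cdc6, the helicase loader, had 58.9 and 35.5 RPM in Blast against 6.27 and 4.58 RPM in B cell (2.88 ± 0.32 SE, limma adjusted p = 4.8e-06). Tyms, which makes thymidylate, had 127 and 146 RPM in Blast against 22.6 and 19.5 RPM in B cell (2.64 ± 0.19 SE, limma adjusted p = 9.6e-08). Ccnb1, cyclin B1, had 125 and 128 RPM in Blast against 20.4 and 21.0 RPM in B cell (2.56 ± 0.23 SE, limma adjusted p = 7.7e-07). In all 3 genes both Blast libraries lay far above both B cell libraries.

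Birc5, survivin of the chromosomal passenger complex, had 146 and 167 RPM in Blast against 38.4 and 31.8 RPM in B cell (2.13 ± 0.18 SE, limma adjusted p = 4.0e-07). Cdca5, sororin, which keeps sister chromatids together, had 68.3 and 73.7 RPM in Blast against 16.2 and 10.1 RPM in B cell (2.38 ± 0.24 SE, limma adjusted p = 2.3e-06). Ccna2, cyclin A2, had 268 and 286 RPM in Blast against 71.0 and 73.5 RPM in B cell (1.93 ± 0.18 SE, limma adjusted p = 8.1e-07). All 3 stood apart between the groups. Pcna, the sliding clamp, had 823 and 972 RPM in Blast against 307 and 304 RPM in B cell (1.55 ± 0.17 SE, limma adjusted p = 3.9e-06). Its groups did not overlap either.

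The 8 tested members that were not called were Mcm2, Tk1, Gmnn, Cdt1, E2f1, Mki67, Cenpf and Neil3. Mki67, the histological marker of dividing cells, had 174 and 165 RPM in Blast against 122 and 94.3 RPM in B cell, a log2 fold change of 0.66 ± 0.16 SE, limma adjusted p = 0.0033, short of the fold required. Cdt1 had 60.9 and 58.4 RPM in Blast against 89.8 and 86.2 RPM in B cell (-0.55 ± 0.19 SE, limma adjusted p = 0.022). E2f1, with 9.39 and 7.80 RPM in Blast against 13.5 and 10.1 RPM in B cell, had -0.41 ± 0.34 SE, limma adjusted p = 0.33. Cdt1 and E2f1 were the only tested members with a negative value.

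Of other cell cycle genes, replication genes rose in 17 of 24 cases and mitosis genes in 23 of 28. Of 8 inhibitors, 2 rose (Cdkn1a, which encodes p21, by 4.28 on the log2 scale, and Cdkn2b) and 5 fell, among them Cdkn1b (-1.96), which encodes p27, and Btg1 (-2.09). Mybl2, a partner of the MuvB complex, rose by 2.98. The 9 markers of other blood cells (T, NK and myeloid) summed to 6.35 and 21.7 RPM in Blast, with 6 and 3 of them at 0, against 320.3 and 411 RPM in B cell, with 0 and 0 at 0. Of 6 tested, 5 were lower in Blast, and their part in the result was not tested.

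Between Blast, prePB and PB few members were called, and the classes drifted apart. In prePB against Blast, limma called 0 of 41 members higher and 0 lower, where 4.43% and 5.83% of 9871 genes were called higher and lower. Unadjusted p was under 0.05 for 11 members and limma's adjusted p for 6, all short of the fold required. The median was -0.37 for S-phase and -0.13 for mitotic members, beside -0.24 for all genes. The mitotic median was 0.078 after median-of-ratios scaling and 0.097 without Blast replicate 2. In PB against prePB limma again called 0 higher and 0 lower, where 1.26% and 11.7% of genes were called, and unadjusted p was under 0.05 for 12 members and adjusted p for 8. There the medians were -0.39 for S-phase, -0.099 for mitotic members and -0.39 for all genes.

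In PB against Blast, 1 of 41 members was called higher and 5 lower, where 6.66% of genes were called higher and 30.9% lower. The 5 that fell were all S-phase genes: Mcm3, Tyms, Rrm1, Mcm7 and Mcm4. With 5 of 19 tested S-phase members lower, their share was near that of all genes. Mcm3, a subunit of the helicase, had 84.8 and 67.5 RPM in PB against 202 and 246 RPM in Blast (-1.55 ± 0.18 SE, limma adjusted p = 6.3e-06). Tyms had 48.5 and 45.7 RPM in PB against 127 and 146 RPM in Blast (-1.51 ± 0.19 SE, limma adjusted p = 1.6e-05). Both genes lay lower in each PB library than in each Blast library.

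Mki67 was the member that rose, with 358 and 357 RPM in PB against 174 and 165 RPM in Blast (1.07 ± 0.16 SE, limma adjusted p = 6.8e-05). It also had 246 and 246 RPM in prePB, and its 4 B-lineage groups did not overlap. Top2a had 266 and 351 RPM in PB against 324 and 395 RPM in Blast (-0.23 ± 0.18 SE, limma adjusted p = 0.30) and Plk1 91.6 and 72.9 RPM in PB against 69.6 and 80.0 RPM in Blast (0.13 ± 0.20 SE, limma adjusted p = 0.60), and neither was called. The class medians were -0.77 for S-phase and -0.21 for mitotic members, against -0.64 for all genes. Of other genes, 8 of 24 replication genes and 3 of 28 mitosis genes fell, and none of either list rose. The share of replication genes that fell was also near that of all genes.

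Without PB replicate 1 the count called higher was 2.

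The counts in PB depend on how the libraries are scaled. The log2 fold change of 6 reference genes, a mix of histone chaperone and housekeeping genes, had a median of -1.02. The 6 plasmablast markers summed to 15818 and 15149 RPM in PB against 258 and 253 RPM in Blast. After median-of-ratios scaling the median of all genes was -0.064, and 3 members were called higher and 0 lower. Those were Mki67 (1.70 ± 0.16 SE, limma adjusted p = 9.7e-07), E2f1 (1.22 ± 0.35 SE, adjusted p = 0.012) and Cenpf (1.01 ± 0.28 SE, adjusted p = 0.011). The 5 S-phase calls were lost and the direction of the mitotic median flipped, with -0.17 for S-phase and 0.43 for mitotic members. The gap between the classes moved little, since S-phase minus mitotic was 0.64 ± 0.13 in B cell, 0.29 ± 0.043 in Blast, 0.018 ± 0.070 in prePB and -0.23 ± 0.026 in PB (SD, n = 2 each). In PB against prePB the same scaling called Cdt1, Cenpf and Neil3 higher, with medians of 0.036 for S-phase and 0.33 for mitotic members.

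**Figure D4:**
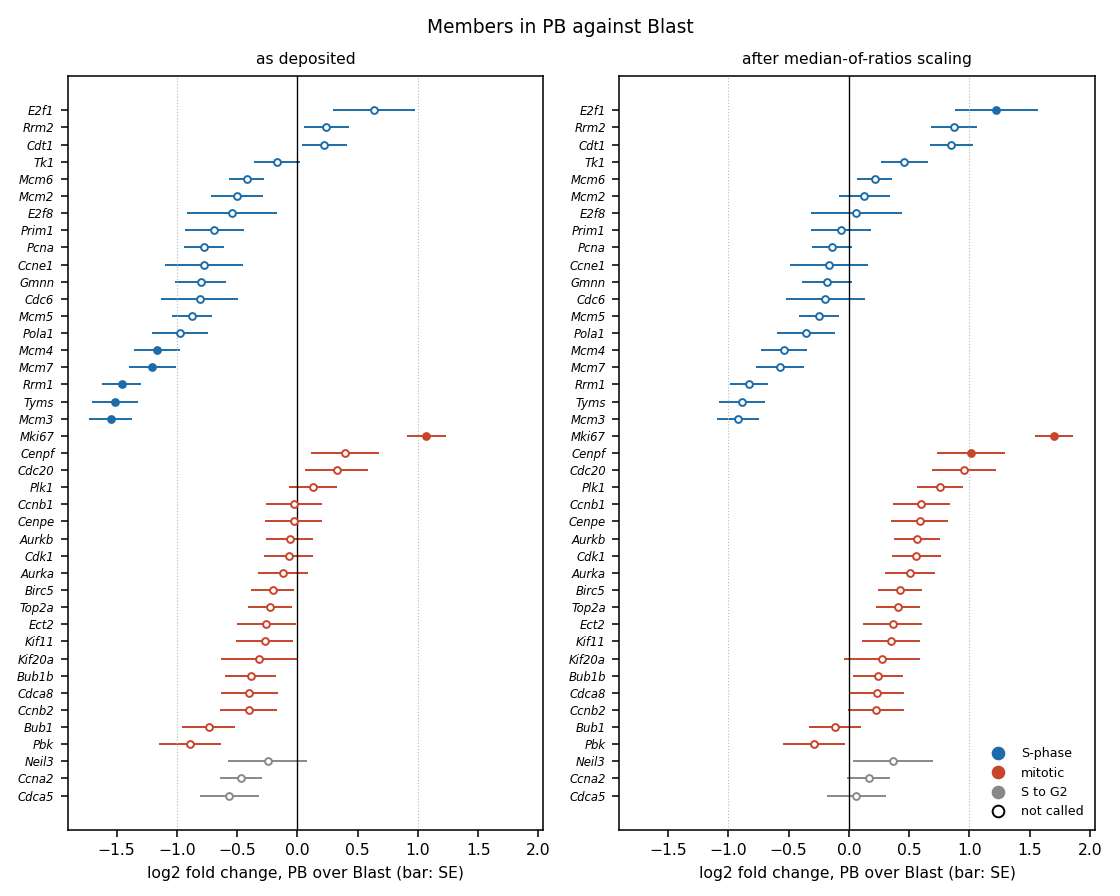
Log2 fold change of each of the 41 tested members in PB over Blast (points, with SE as bars), as deposited on the left and after median-of-ratios scaling on the right; filled points were called. Scaling moves all points to the right: as deposited Mki67 is called higher and 5 S-phase genes lower, and after scaling Mki67, E2f1 and Cenpf are called higher.

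Set against B cell, PB kept the mitotic members high. In PB 23 of 41 members were called higher and 0 lower, where 7.20% of genes were called higher and 40.5% lower. These were 18 of 19 mitotic members (median 1.44), 3 of 19 S-phase members (0.42) and 2 of 3 others, and all genes had a median of -0.77. After median-of-ratios scaling the counts were 18 mitotic and 11 S-phase members, and without PB replicate 1 the S-phase count was 5. The comparisons of PB and of Blast with B cell share the same B cell libraries.

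Rrm2, the regulated subunit of ribonucleotide reductase, had 99.8 and 123 RPM in PB against 17.99 and 18.1 RPM in B cell (2.55 ± 0.19 SE, limma adjusted p = 4.8e-08). Ccnb1 had 93.1 and 165 RPM in PB against 20.4 and 21.0 RPM in B cell (2.53 ± 0.23 SE, limma adjusted p = 4.3e-07). Cdc20 had 119 and 121 RPM in PB against 23.2 and 32.3 RPM in B cell (2.10 ± 0.26 SE, limma adjusted p = 9.2e-06). All 3 stood apart between the groups.

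Cdc6 had 21.3 and 30.9 RPM in PB against 6.27 and 4.58 RPM in B cell (2.07 ± 0.32 SE, limma adjusted p = 5.8e-05). Cdca5 had 44.2 and 51.3 RPM in PB against 16.2 and 10.1 RPM in B cell (1.82 ± 0.24 SE, limma adjusted p = 1.7e-05), and Ccna2 183 and 218 RPM in PB against 71.0 and 73.5 RPM in B cell (1.46 ± 0.18 SE, limma adjusted p = 6.1e-06). Again the groups did not overlap. Mcm5 had 146 and 133 RPM in PB against 124 and 106 RPM in B cell (0.27 ± 0.17 SE, limma adjusted p = 0.16) and was not called. Pbk, a mitotic kinase, was the mitotic member not called, at 0.19 ± 0.26.

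In the intestine the members were higher after birth. In P3_IE against E16.5_emIE 31 of 41 members were called higher and 0 lower, where 12.6% of 10481 genes were called higher and 8.20% lower. S-phase members rose in 14 of 19 cases (median 1.49) and mitotic members in 15 of 19 (1.27), with 0.11 for all genes. Cdca5 and Neil3 rose too.

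Pola1, the catalytic subunit of DNA polymerase alpha, had 34.1 and 32.0 RPM in P3_IE against 5.39 and 4.32 RPM in E16.5_emIE (2.54 ± 0.27 SE, limma adjusted p = 7.5e-08). Pbk had 56.9 and 92.5 RPM in P3_IE against 11.2 and 11.4 RPM in E16.5_emIE (2.58 ± 0.23 SE, limma adjusted p = 4.8e-09). Top2a, the topoisomerase that untangles chromosomes, had 226 and 269.9 RPM in P3_IE against 78.5 and 63.6 RPM in E16.5_emIE (1.79 ± 0.16 SE, limma adjusted p = 4.8e-09). All 3 were higher in both P3 libraries than in either E16.5 library.

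Cdc6 had 22.9 and 15.5 RPM in P3_IE against 4.42 and 2.16 RPM in E16.5_emIE (2.26 ± 0.38 SE, limma adjusted p = 5.4e-05). Neil3, a DNA glycosylase, had 30.9 and 32.0 RPM in P3_IE against 2.31 and 6.18 RPM in E16.5_emIE (2.74 ± 0.33 SE, limma adjusted p = 6.1e-07). Cdca5 had 49.3 and 45.1 RPM in P3_IE against 10.4 and 10.2 RPM in E16.5_emIE (2.09 ± 0.24 SE, limma adjusted p = 2.1e-07). In all 3 both P3 libraries were the higher ones. Mki67 had 124 and 199 RPM in P3_IE against 48.9 and 54.5 RPM in E16.5_emIE (1.58 ± 0.20 SE, limma adjusted p = 8.0e-07). Among members not called were Ccnb1 (0.80 ± 0.21), Cdc20 (0.54 ± 0.19), Ccne1 (0.69 ± 0.29) and E2f8 (0.25 ± 0.22), an atypical E2F repressor (all SE).

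Other cell cycle genes rose likewise, with 21 of 24 replication and 25 of 28 mitosis genes higher in P3_IE. Cdkn1c, which encodes the inhibitor p57, fell by 4.99 on the log2 scale and Myc rose by 2.26. Crypt stem cell markers rose in 8 of 8 cases and summed to 2207 and 2511 RPM in P3_IE against 52.7 and 59.0 RPM in E16.5_emIE, with none at 0 in these libraries. Cdca7 is in this list and in the replication list. Enterocyte markers summed to 12299 and 11203 RPM in P3_IE against 21949.6 and 23558 RPM in E16.5_emIE. Enteroendocrine markers rose in 6 of 6 cases and summed to 6911 and 4701 RPM in P3_IE against 90.0 and 56.5 RPM in E16.5_emIE, with none at 0. Paneth cell markers rose in 4 of 4 cases and summed to 1593 and 1306 RPM in P3_IE, with none at 0, against 37.9 and 32.1 RPM in E16.5_emIE, with 1 and 2 at 0. The part of cell makeup in the result was not tested.

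Between P14_IE and P3_IE limma called 0 of 41 members higher and 0 lower, where 1.99% and 2.40% of genes were called, and unadjusted p was under 0.05 for 6 members and adjusted p for 1. Medians were -0.20 for S-phase, -0.29 for mitotic members and -0.081 for all genes. Mki67 had 166 and 134 RPM in P14_IE against 124 and 199 RPM in P3_IE, and Pcna 716 and 761 RPM in P14_IE against 682 and 696 RPM in P3_IE. Cdc20, with 51.3 and 48.7 RPM in P14_IE against 73.1 and 92.2 RPM in P3_IE, had an adjusted p of 0.020 in limma and a log2 fold change of -0.71 ± 0.19, short of the fold required.

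In the retina most members were lower at P4 than at P0, and the mitotic median was below the S-phase median. In P4_PRP_GFP+CD73- against P0_PRP_GFP+ 34 of 41 members were called lower and 0 higher, where 5.77% of 11704 genes were called lower and 5.24% higher. Mitotic members fell in 17 of 19 cases with a median of -2.61, S-phase members in 14 of 19 with -1.49, and Ccna2, Cdca5 and Neil3 all fell. The median of all genes was 0.058. The S-phase count was 7 without P4_PRP_GFP+CD73- replicate 1 and 9 with no filter on low values, while the mitotic count was 17 in both cases.

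Cdk1, the mitotic kinase, had 18.2 and 61.3 RPM in P4_PRP_GFP+CD73- against 324 and 296 RPM in P0_PRP_GFP+ (-3.17 ± 0.45 SE, limma adjusted p = 1.2e-04). Aurkb, the kinase of the passenger complex, had 10.0 and 35.2 RPM in P4_PRP_GFP+CD73- against 167 and 165 RPM in P0_PRP_GFP+ (-3.06 ± 0.45 SE, limma adjusted p = 1.8e-04). Cdca5 had 3.93 and 11.6 RPM in P4_PRP_GFP+CD73- against 81.0 and 80.8 RPM in P0_PRP_GFP+ (-3.38 ± 0.45 SE, limma adjusted p = 7.1e-05). The P4 replicates differed severalfold in each, yet both stayed below both P0 libraries.

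E2f8 had 1.43 and 9.19 RPM in P4_PRP_GFP+CD73- against 45.0 and 54.3 RPM in P0_PRP_GFP+ (-3.34 ± 0.57 SE, limma adjusted p = 6.5e-04), and Rrm2 2.50 and 7.69 RPM in P4_PRP_GFP+CD73- against 29.0 and 35.6 RPM in P0_PRP_GFP+ (-2.59 ± 0.45 SE, limma adjusted p = 8.0e-04). Neil3 had 6.97 and 17.4 RPM in P4_PRP_GFP+CD73- against 114 and 86.9 RPM in P0_PRP_GFP+ (-3.05 ± 0.42 SE, limma adjusted p = 1.0e-04). Here too both P4 libraries lay below both P0 libraries. Top2a (chr11:98992943-99024189, minus strand, GRCm38) had 52.5 and 144 RPM in P4_PRP_GFP+CD73- against 713 and 661 RPM in P0_PRP_GFP+ (-2.96 ± 0.36 SE, limma adjusted p = 2.8e-05). Mcm7, at -0.47 ± 0.18, and Bub1b, at -0.68 ± 0.23, were the members with the smallest changes and were not called (SE). Of other genes, 28 of 28 mitosis genes fell, as did 12 of 23 other replication genes and Foxm1 (-2.88), a transcription factor of mitotic genes.

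In this comparison retinal progenitor markers moved with the members. Their sum was 787 and 1028 RPM in P4_PRP_GFP+CD73- against 2448 and 2597 RPM in P0_PRP_GFP+, with none of 10 at 0, and 7 of 10 fell. The 10 rod markers all rose, to 4936 and 4292 RPM against 1153 and 1089.7 RPM. The part of remaining progenitors in the members' fall was not tested.

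Between the P4 sorts, with CD73 against without, limma called 0 of 41 members higher and 0 lower, where 3.43% and 2.43% of genes were called, and unadjusted p was under 0.05 for 3 members and adjusted p for 1. The medians were 0.27 for S-phase and 0.21 for mitotic members. Without P4_PRP_GFP+CD73- replicate 1 they were -0.18 and -0.42, and without P4_PRP_CD73+ replicate 2 -0.22 and -0.31, in the same order. Mki67 had 47.5 and 117 RPM in P4_PRP_CD73+ against 45.7 and 85.0 RPM in P4_PRP_GFP+CD73-, and the 2 sorts overlapped. The mean log2(RPM + 1) of the mitotic members was 4.36 with CD73 against 4.11 without in replicate 1, and 5.41 with CD73 against 5.25 without in replicate 2. Meanwhile 8 of 10 rod markers rose, to 11605 and 9404 RPM with CD73 against 4936 and 4292 RPM without.

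In P6_PRP_CD73+ against P4_PRP_CD73+ 16 of 41 members were called lower and 0 higher, where 1.14% of genes were called lower and 1.56% higher. They were 13 of 19 mitotic members (median -1.67), Rrm2 and Tk1 among 19 S-phase members (median -0.73), and Cdca5. Top2a had 17.9 and 17.0 RPM in P6_PRP_CD73+ against 70.9 and 145 RPM in P4_PRP_CD73+ (-2.47 ± 0.36 SE, limma adjusted p = 7.9e-04). Pbk had 6.59 and 6.97 RPM in P6_PRP_CD73+ against 25.7 and 66.1 RPM in P4_PRP_CD73+ (-2.44 ± 0.45 SE, limma adjusted p = 0.0057), and Rrm2 1.83 and 1.55 RPM in P6_PRP_CD73+ against 7.78 and 13.8 RPM in P4_PRP_CD73+ (-2.08 ± 0.45 SE, limma adjusted p = 0.016). Both P6 libraries lay below both P4 libraries in these genes. Tk1 had 5.12 and 4.64 RPM in P6_PRP_CD73+ against 10.1 and 32.0 RPM in P4_PRP_CD73+ (-1.71 ± 0.46 SE, limma adjusted p = 0.049), and Cdca5 1.46 and 2.32 RPM in P6_PRP_CD73+ against 6.60 and 14.5 RPM in P4_PRP_CD73+ (-1.93 ± 0.45 SE, limma adjusted p = 0.023). The count rests on single libraries: it was 2 without P4_PRP_CD73+ replicate 2, 3 without P6 replicate 1, 4 without P6 replicate 2, and 1 with no filter on low values.

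In P10_PRP_CD73+ against P6_PRP_CD73+ 22 of 41 members were called lower and 0 higher, where 7.62% of genes were called lower and 3.33% higher. S-phase members fell in 10 of 19 cases (median -1.16) and mitotic members in 11 of 19 (-1.50). With no filter on low values 10 were called, 5 of them S-phase and 4 mitotic. Leaving out P6 replicate 1 left 14 (6 S-phase, 7 mitotic), and leaving out P10 replicate 2 left 14, of which 4 were S-phase.

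Mki67 had 2.60 and 0.336 RPM in P10_PRP_CD73+ against 14.6 and 16.6 RPM in P6_PRP_CD73+ (-2.92 ± 0.43 SE, limma adjusted p = 1.9e-04). E2f1, the activator of S-phase genes, had 2.34 and 1.68 RPM in P10_PRP_CD73+ against 18.7 and 12.4 RPM in P6_PRP_CD73+ (-2.44 ± 0.35 SE, limma adjusted p = 1.6e-04). Tyms had 4.94 and 6.06 RPM in P10_PRP_CD73+ against 21.2 and 23.4 RPM in P6_PRP_CD73+ (-1.85 ± 0.33 SE, limma adjusted p = 0.0011). Both P10 libraries lay below both P6 libraries in all 3 genes.

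Pbk had 0 and 0.336 RPM in P10_PRP_CD73+ against 6.59 and 6.97 RPM in P6_PRP_CD73+, and Neil3 0 and 0.336 RPM in P10_PRP_CD73+ against 5.12 and 3.10 RPM in P6_PRP_CD73+. Both fell (-2.75 ± 0.45 and -2.12 ± 0.42, SE), but at P10 each rests on a single read in all, so these fitted values are no bound. E2f8 was at 0 in both P10 libraries, against 1.46 and 1.93 RPM in P6_PRP_CD73+, which also rest on a few reads. At a floor of 3 reads per library it was at least 55.5-fold lower than in P0_PRP_GFP+ and at least 1.90-fold lower than in P6_PRP_CD73+, and with it at that bound the S-phase median was -1.13 against P6.

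Some members kept a level at P10. Pcna had 195 and 185 RPM in P10_PRP_CD73+ against 159.9 and 164 RPM in P6_PRP_CD73+, Ccna2 73.2 and 70.7 RPM in P10_PRP_CD73+ against 76.5 and 84.7 RPM in P6_PRP_CD73+, and Bub1b 17.4 and 22.2 RPM in P10_PRP_CD73+ against 14.3 and 15.1 RPM in P6_PRP_CD73+. None of these was called, at 0.23 ± 0.20, -0.16 ± 0.19 and 0.40 ± 0.23 (SE). Ccnd1, cyclin D1 and not a member, fell by 3.31 on the log2 scale. Progenitor markers fell in 8 of 10 cases and summed to 703 and 509 RPM in P10_PRP_CD73+ against 1123 and 1173 RPM in P6_PRP_CD73+. In P4_PRP_CD73+ they summed to 709 and 1065 RPM, less than in either P6 library. This sum thus did not fall from P4 to P6 as the members did. Their mean log2(RPM + 1) was 5.45 and 6.28 in P4_PRP_CD73+ against 5.31 and 5.50 in P6_PRP_CD73+. The part of progenitors in these changes was not tested.

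The lineages went opposite ways with age, and the difference itself was tested. The log2 change of P14_IE against E16.5_emIE minus that of P10_PRP_CD73+ against P0_PRP_GFP+ was called higher for 41 of 41 members, where 23.3% of 14131 genes were called higher and 18.4% lower. The median was 4.57 for S-phase members, 6.28 for mitotic members and 0.082 for all genes. The largest adjusted p (limma) was 1.3e-04. In the intestine the change was negative for Cdc20 (-0.17) and E2f8 (-0.035) and positive for the other 39 members, and in the retina it was negative for all 41. In the intestine the gate changed along with age, and these cannot be told apart. In the retina P10 and P0 also had different gates. Within the CD73-positive gate the summed level of the members was 1728 RPM at P4, 796 RPM at P6 and 516 RPM at P10. At P4 the gates had 1728 RPM with CD73 against 1641 RPM without. Between them 0 of 41 members were called, where 3.43% of genes were called higher and 2.43% lower. The part of the gate in the retinal change was not tested.

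Top2a had 1.86 in the intestine and -7.22 in the retina, a difference of 9.08 ± 0.43 (SE, limma adjusted p = 4.9e-13). Mki67 had 1.51 and -7.44 in intestine and retina, a difference of 8.95 ± 0.52 (limma adjusted p = 6.8e-12). Mcm5, a helicase subunit, had 1.72 and -3.78, a difference of 5.50 ± 0.36 (limma adjusted p = 4.9e-11). Ccne1 had the smallest difference, 2.45 ± 0.46, and Pcna the next, 2.62 ± 0.28 (SE), from 1.26 in the intestine and -1.35 in the retina.

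**Figure D5:**
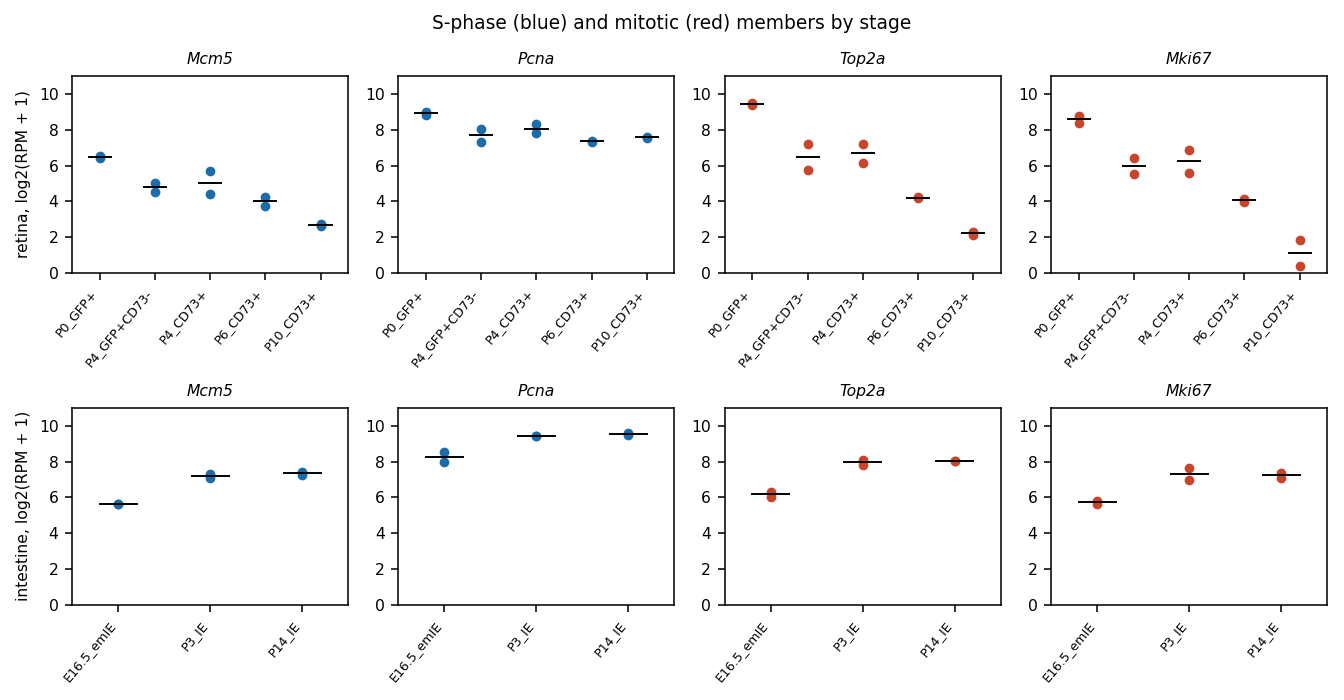
Level, as log2(RPM + 1), of Mcm5 and Pcna (S-phase, blue) and Top2a and Mki67 (mitotic, red) in each library (points) with group means (lines), by stage in the retina (top row) and the intestine (bottom row). In the retina Top2a falls to 3.90 and 3.36 RPM at P10, Pcna stays at 195 and 185 RPM, and in the intestine all 4 genes are higher at P3 and P14 than at E16.5.

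Germ cell-like cells were among the highest groups. In d2 PGCLC against E16.5_emIE 36 of 41 members were called higher and 1 lower, where 26.5% of 14131 genes were called higher and 20.3% lower. Medians were 2.09 for S-phase, 2.27 for mitotic members and 0.16 for all genes. Cenpf, a kinetochore protein, had 117 and 138 RPM in d2 PGCLC against 10.0 and 10.5 RPM in E16.5_emIE (3.51 ± 0.34 SE, limma adjusted p = 5.4e-09). Bub1, a kinase of the spindle checkpoint, had 154 and 149 RPM in d2 PGCLC against 11.9 and 13.6 RPM in E16.5_emIE (3.47 ± 0.35 SE, limma adjusted p = 1.5e-08). Cdc6 had 35.0 and 34.5 RPM in d2 PGCLC against 4.42 and 2.16 RPM in E16.5_emIE (3.11 ± 0.49 SE, limma adjusted p = 8.9e-06). These groups were far apart in all 3.

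Mcm3 had 255 and 287 RPM in d2 PGCLC against 29.6 and 34.3 RPM in E16.5_emIE (3.05 ± 0.37 SE, limma adjusted p = 2.0e-07). Cdca5 had 115 and 97.9 RPM in d2 PGCLC against 10.4 and 10.2 RPM in E16.5_emIE (3.25 ± 0.34 SE, limma adjusted p = 2.7e-08), and Neil3 18.6 and 17.4 RPM in d2 PGCLC against 2.31 and 6.18 RPM in E16.5_emIE (1.97 ± 0.40 SE, limma adjusted p = 1.7e-04). All 3 were higher in each d2 PGCLC library. The exception was E2f8, with 13.4 and 16.7 RPM in d2 PGCLC against 45.8 and 50.9 RPM in E16.5_emIE (-1.63 ± 0.49 SE, limma adjusted p = 0.0065), which fell. The strain, culture, reporter and cell type of d2 PGCLC all differ from those of every group it is set against, and these cannot be told apart.

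Against P0_PRP_GFP+, d2 PGCLC had more of the S-phase members. There 11 of 41 members were called higher and 6 lower, where 14.3% of genes were called higher and 30.3% lower. S-phase members rose in 10 of 19 cases and mitotic members in 1 of 19, with medians of 1.03 and -0.082 beside -0.31 for all genes. The mitotic median was 0.080 after median-of-ratios scaling and 0.11 without P0 replicate 1. Ccne1, cyclin E1, had 94.4 and 82.7 RPM in d2 PGCLC against 8.37 and 11.4 RPM in P0_PRP_GFP+ (3.05 ± 0.33 SE, limma adjusted p = 3.6e-08), and no other group reached its d2 PGCLC level. E2f1 had 10.5 and 18.5 RPM in d2 PGCLC against 70.8 and 79.4 RPM in P0_PRP_GFP+ (-2.34 ± 0.37 SE, limma adjusted p = 1.1e-05). E2f8 also fell (-1.66 ± 0.49 SE), so these 2 went against the other called S-phase members.

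Pbk had 44.9 and 40.8 RPM in d2 PGCLC against 209 and 164 RPM in P0_PRP_GFP+ (-2.09 ± 0.38 SE, limma adjusted p = 5.7e-05). Mki67 had 174 and 176 RPM in d2 PGCLC against 432 and 335 RPM in P0_PRP_GFP+ (-1.12 ± 0.37 SE, limma adjusted p = 0.012). Neil3 had 18.6 and 17.4 RPM in d2 PGCLC against 114 and 86.9 RPM in P0_PRP_GFP+ (-2.40 ± 0.40 SE, limma adjusted p = 1.8e-05). These 3 fell, as did Birc5 (-1.05 ± 0.36 SE), and Bub1 (1.02 ± 0.35 SE) was the mitotic member that rose. No mitotic member was called higher with a pseudocount of 4 RPM, without either d2 PGCLC library or without P0 replicate 2. Of the 3 mitotic members lower, 1 was called without d2 PGCLC replicate 1, and likewise 1 without P0 replicate 1.

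In d2 PGCLC against Blast 11 of 41 members were called higher and 1 lower, where 26.0% of genes were called higher and 12.4% lower. The share of members called higher is near that of all genes. Mitotic members rose in 8 of 19 cases (median 0.96) and S-phase members in 3 of 19 (0.20), with 0.28 for all genes. Cenpf had 117 and 138 RPM in d2 PGCLC against 27.7 and 26.9 RPM in Blast (2.18 ± 0.34 SE, limma adjusted p = 8.1e-06). Cdc20 had 297 and 276 RPM in d2 PGCLC against 74.6 and 123 RPM in Blast (1.57 ± 0.36 SE, limma adjusted p = 8.5e-04). Ccne1 had 94.4 and 82.7 RPM in d2 PGCLC against 22.8 and 47.4 RPM in Blast (1.395 ± 0.33 SE, limma adjusted p = 9.2e-04). All 3 were higher in both d2 PGCLC libraries. Cdt1 had 163 and 141 RPM in d2 PGCLC against 60.9 and 58.4 RPM in Blast (1.33 ± 0.22 SE, limma adjusted p = 2.1e-05). Birc5 fell, with 66.4 and 76.0 RPM in d2 PGCLC against 146 and 167 RPM in Blast (-1.13 ± 0.36 SE, limma adjusted p = 0.010). After median-of-ratios scaling 6 were called higher (4 mitotic, 2 S-phase) and 2 lower. Without Blast replicate 1 the count higher was 6, and without d2 PGCLC replicate 1 or Blast replicate 2 the count lower was 0.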

How the data were processed

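The deposited table holds 3' RNA-seq signal in RPM, reads scaled to library size, for 26 mouse libraries, made by the authors. Per the submitters' processing notes, the tools were cutadapt 1.11, TopHat 1.4.1, Bowtie 1.0.1 and Cufflinks 2.2.0 with the mm10 build. Of 26310 lines, 92 were spike-ins and 1072 gene lines without all 26 values were not used. Steps between low values gave whole reads (within 0.02 of a read, below 20.5 reads) for 82.9 to 91.3% of values, so no count test was run.

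A gene entered a fit where 2 or more of its samples reached 5 RPM, and log2(RPM + 1) was tested with limma 3.58.1 (R 4.3.3), whose trended test was checked on simulated data, with Benjamini-Hochberg adjustment over all genes tested. Each lineage had its own fit, and all 26 libraries entered the comparisons with d2 PGCLC and between lineages. Tables and figures used Python 3.11.15, NumPy 2.4.6, pandas 2.3.3 and matplotlib 3.10.9.

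The members and gene lists were chosen with earlier results of these data known. Library values were given for 8 standing genes where they matter and for the 2 called members of each class with the largest change. Genes named outside this rule were chosen after their values were seen. Alternatives were the scaling, the pseudocount, the filter, the replicate block, 1 fit of all libraries and leaving out each library.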

Additional observations from a re-analysis of the deposited data

Results flagged for a closer look

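The change with age differed between the lineages for 41 of 41 tested members: each had a larger log2 change in P14_IE against E16.5_emIE than in P10_PRP_CD73+ against P0_PRP_GFP+, by limma's test of the difference itself. In the intestine the sorting gate and age cannot be told apart, and in the retina P10 and P0 also had different gates.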

How the results depend on the processing

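The check of single fold changes covered the standing genes alone: Mki67, Top2a, Ccnb1, Plk1, Mcm5, Pcna, Ccne1 and Cdt1. None of their called fold changes turned round under the alternatives run, and the other named members were not checked for this. Some class medians near 0 changed sign, as given beside them above. In d2 PGCLC against Blast the S-phase median was -0.045 after median-of-ratios scaling. Quantile normalization turned the mitotic medians of prePB against Blast, PB against prePB, PB against Blast and d2 PGCLC against P0_PRP_GFP+ positive, as median-of-ratios scaling did. Median-of-ratios scaling gave 3 members higher in PB against prePB, 3 higher and 0 lower in PB against Blast, and 6 higher and 2 lower in d2 PGCLC against Blast. Quantile normalization gave 1 higher in PB against prePB, 2 higher and 0 lower in PB against Blast, and 6 higher and 2 lower in d2 PGCLC against Blast. With no filter, 1 member was lower in P6_PRP_CD73+ against P4_PRP_CD73+ and 10 in P10_PRP_CD73+ against P6_PRP_CD73+. With both P4 sorts reduced to replicate 1, an alternative chosen after seeing the data, 1 member was lower in P4_PRP_CD73+ against P4_PRP_GFP+CD73- and 3 in P6_PRP_CD73+ against P4_PRP_CD73+, and with both reduced to replicate 2 the P6_PRP_CD73+ count was 23. S-phase minus mitotic was -0.34 in d2 PGCLC with a pseudocount of 0.5, and with a pseudocount of 4 it was -0.25 in d2 PGCLC, 0.58 in P10_PRP_CD73+ (below B cell) and -0.19 in PB. The cause of these shifts was not tested.

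Leaving out 1 library gave 1 to 2 members higher in PB against Blast, 0 to 1 higher and 0 to 1 lower in P4_PRP_CD73+ against P4_PRP_GFP+CD73-, and 2 to 22 lower in P6_PRP_CD73+ against P4_PRP_CD73+. It gave 14 to 18 lower in P10_PRP_CD73+ against P6_PRP_CD73+, and 6 to 15 higher and 0 to 1 lower in d2 PGCLC against Blast. A lone library was assumed to vary like the other groups of its fit. The labels tie the replicate numbers to no shared animal, batch or day. The replicate differences of 2 groups correlated across genes with r = 0.284 between the P4 sorts, 0.196 between Blast and prePB and 0.127 between prePB and PB. In all other pairs within a lineage r was under 0.1. Over the 41 tested members r was 0.473 between the P4 sorts and 0.460 between prePB and PB. It was 0.306 between B cell and Blast, 0.303 between P6_PRP_CD73+ and P10_PRP_CD73+, and between -0.283 and 0.145 in the other pairs. As the labels give no pairing, the fit without the block was kept. The block was 1 shared term for all groups of a fit, so it cannot show whether the P4 sorts were paired. With the replicate block 35 members were lower in P4_PRP_GFP+CD73- against P0_PRP_GFP+ and 21 in P10_PRP_CD73+ against P6_PRP_CD73+, and no count moved by over 1.5 times. Where member levels are low, as in the late retina, values can rest on a few reads.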
